A study of Mus musculus with 8 samples.

Results

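The comparison described here is the late response to retinoic acid (RA): 2 libraries of immortalised mouse embryonic fibroblasts (MEFs) given RA for 72 h, against 3 libraries of the same cells left untreated and labelled 12 h. Its members are the genes with a mean of at least 10 normalised reads over these 5 libraries, which were 12687 of the 22200 genes of the deposited table. All 5 libraries, and the 3 further libraries given RA for 12 h that the table holds, carry the genotype TAF4-/- on the C57BL/6 background, and cells with TAF4 were not analysed here. By the study's methods the TAF4-null cells are 1 line (C3), obtained by expressing the Cre recombinase in a line with 1 floxed and 1 null Taf4 allele (C1), and RA was all-trans RA. The titles of the libraries carry cl1, which resembles the name of the line with TAF4, while the genotype labels and the methods give the null line, which was followed. The labels and the study's results give 72 h for the late time, and its methods give another time. The samples used here hold no untreated library labelled 72 h, so RA and time in culture cannot be told apart in any value below. Nothing says that the libraries of a group came from separate cultures, so the p-values measure the spread between these libraries, which may be technical.

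TAF4 is a subunit of TFIID, the general transcription factor that binds core promoters and includes the TATA-binding protein. RA enters cells, is carried by cellular RA-binding proteins, and binds the RA receptors, which sit on DNA as dimers with the retinoid X receptors. Without ligand the dimer holds corepressors, and with ligand it recruits coactivators and raises transcription of nearby genes, among them genes that break RA down. In fibroblasts RA is known for slowing growth and for changing the matrix the cells secrete, though the study reported no significant effect of RA on C3 cell counts.

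Each value is a quantile-normalised read number for a gene, on a scale from 1 to 165593 that is the same in every library. A log2 change is the difference of group means of log2(value + 1), given with its standard error (SE) from a limma model of all 8 libraries. Called genes are those that changed 2-fold or more with an adjusted p below 0.05. Because the normalization gave every library the same set of values, the depth of the libraries is unknown, and genes that hold the same rank in both libraries show the same value. Rank correlations over the genes tested (Spearman's rho) were 0.981 to 0.992 between untreated libraries, 0.990 between the RA 72 h libraries and 0.966 to 0.979 between the groups. Along the main axis of variation within groups, untreated replicate 3 and RA 72 h replicate 1 shared a side, opposite to the remaining 3 of these libraries.

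The labelled cell type was compared with its markers. Of 14 fibroblast markers, 11 had a mean of at least 10, with summed levels of 242601 to 263278 in untreated and 220733 to 226629 in RA 72 h libraries. Thy1 (1.5, 2.38 and 1.0 untreated), the proteoglycan Dcn (4.88, 1.0 and 4.88) and Lum (1.88, 1.5 and 1.0), 3 defining fibroblast markers, stayed below 10 in all 5 libraries. Epithelial markers summed to 57.9 to 88.1 untreated and 85.9 to 93.5 at RA 72 h, with 8 of 11 below 10 throughout. The exon deletion that makes Taf4 null could not be checked, because the table holds 1 value per gene: Taf4a, the table's symbol for Taf4, read 1297, 1055 and 1403 untreated and 1449 and 1369.6 at RA 72 h (log2 change 0.18 ± 0.13, adjusted p 0.451). Its paralogue Taf4b read 63.6, 72.6 and 62.4 untreated and 49.5 and 50.9 at RA 72 h (log2 change -0.39 ± 0.24, adjusted p 0.357). Among the reference genes, Actb read 478, 613 and 384 untreated and 398 and 459 at RA 72 h (log2 change -0.18 ± 0.20, adjusted p 0.658). Gapdh was listed at 3.88, 5.88 and 2.88 untreated and 4.38 and 3.38 at RA 72 h, and was not tested. With a reference gene this near the floor, a low value here need not mean low expression, which holds for Thy1, Dcn and Lum too. The reason for the low Gapdh values was not tested.

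At RA 72 h 272 genes (2.14% of the 12687 tested) were called higher than untreated and 195 (1.54%) lower, 467 (3.68%) in all. The median log2 change was 1.37 over the genes called higher and -1.39 over those called lower, against -0.02 over all genes tested. Changes of at least 4-fold were reached by 44 of the genes called higher and 31 of those called lower, and of at least 8-fold by 12 and 5. The read values of the called genes were lower than most in untreated cells: the median was 73.6 for those called higher and 75.8 for those called lower, against 188.5 over all genes tested. Processed pseudogenes were called higher in 14 of 115 cases (12.2% called), against 3.60% called of 12513 protein-coding genes, and none was called lower. Of the genes named below, 26 overlap another gene of the table, among them Tgm2, Cdc20, Lrrc17, Gper and Chrd, and reads of overlapping genes cannot be told apart because no source says that strand was used in counting.

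**Figure D1:**
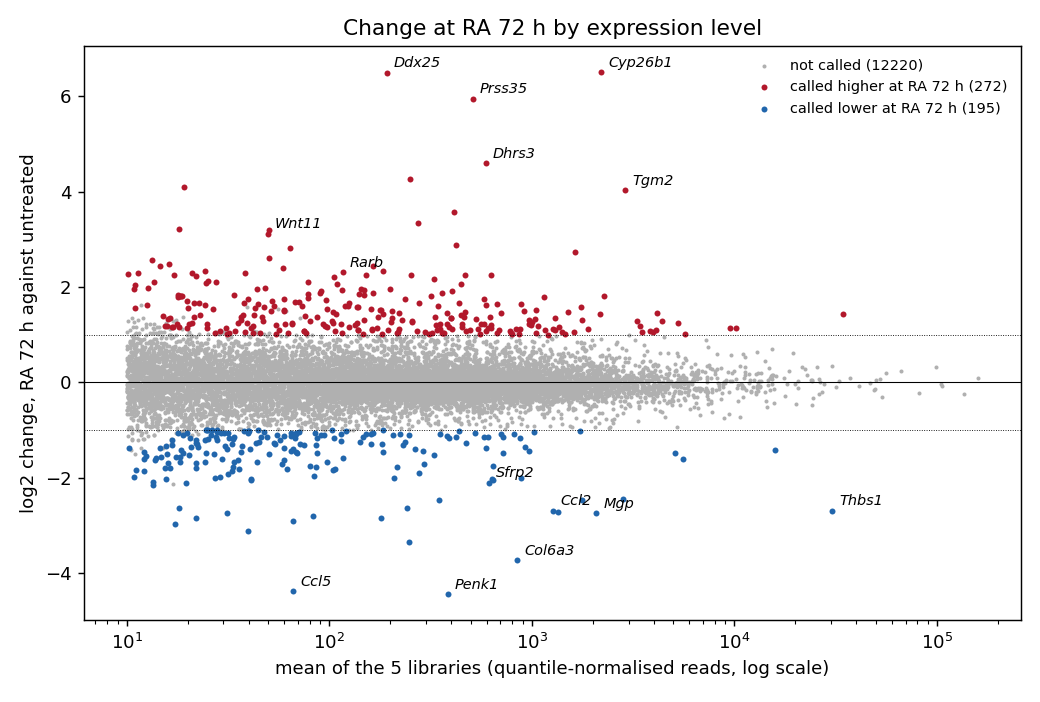
Log2 change at RA 72 h against untreated (vertical axis) of each of the 12687 genes tested, by its mean over the 5 libraries (horizontal axis, quantile-normalised reads on a log scale). Red points are the 272 genes called higher, blue points the 195 called lower and grey points the rest, and dotted lines mark 2-fold. Cyp26b1 and Ddx25 lie highest, near 6.5, and Penk1 and Ccl5 lowest, near -4.4.

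The strongest rise was that of the RA-degrading enzyme Cyp26b1, a cytochrome P450 that clears RA from cells. Cyp26b1 (mm9 chr6:84521938-84543740, minus strand) read 63.6, 73 and 40.4 in the untreated libraries and 4477 and 6306 in the RA 72 h libraries. The lowest RA 72 h value was far above the highest untreated value, and the log2 change was 6.51 ± 0.23 (adjusted p 1.73e-09). The values at RA 12 h, 3252, 3367 and 4620.1, were already near this level, and the difference between the RA times was 0.52 ± 0.23 (adjusted p 0.233). The other members of its family stayed near the floor, Cyp26a1 at 2.5, 2.38 and 2.5 untreated and 4.38 and 1.0 at RA 72 h, and Cyp26c1 at 3.38, 3.13 and 4.88 against 7.63 and 5.5. Dhrs3, which reduces retinaldehyde to retinol and so draws on the RA precursor, rose from 75, 56 and 42.8 to 1382 and 1409 (log2 change 4.60 ± 0.18, adjusted p 5.35e-09). Dhrs3 was higher at RA 72 h than at RA 12 h, where it read 599, 647 and 653 (difference 1.14 ± 0.18, adjusted p 0.00248).

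Among the genes that carry RA or take it up, Crabp2, which delivers RA to the nuclear receptors, read 834, 869 and 776 untreated, 2445, 2469 and 2268 at RA 12 h and 1229 and 1368 at RA 72 h. It was thus above untreated at 72 h by less than 2-fold (log2 change 0.65 ± 0.11, adjusted p 0.00125) and had come down from its 12 h level (difference -0.88 ± 0.11, adjusted p 0.000294). Its relative Crabp1 (5.63, 3.38 and 6.38 untreated, 4.25 and 1.0 at RA 72 h) and the retinol receptor gene Stra6 (2.25, 1.0 and 3.13 against 7.25 and 3.0) were below the level for testing. In all, 12 of 30 listed genes of retinoid metabolism and binding were tested. Of these, 2 were called higher and none lower (16.7% called, against 3.68% of all genes tested). The test was not passed by 8, and the median log2 change was 0.27.

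Of the receptors, Rarb alone was called. Rarb encodes RA receptor beta and is the textbook gene with an RA response element in its own promoter. It read 46.6, 31.1 and 58.4 untreated and 242 and 205 at RA 72 h (log2 change 2.31 ± 0.24, adjusted p 3.4e-05), with 124, 175 and 159 at RA 12 h. Rara read 634, 615 and 683 untreated and 816 and 751 at RA 72 h (log2 change 0.28, adjusted p 0.142). Rarg read 1299, 1346 and 998 against 1134 and 1386, with overlapping groups (log2 change 0.06, adjusted p 0.851). The coactivator gene Ncoa3 was higher by less than 2-fold, 163, 149 and 169 untreated against 251 and 268 at RA 72 h (log2 change 0.69, adjusted p 0.00432). Over the 13 receptor and cofactor genes tested, 1 was called higher and none lower (7.69% called, against 3.68% of all genes tested). Their median log2 change was 0.14.

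The promoter of Rarb is shown because it holds a repeat of the kind that the receptor dimer is known to bind. RefSeq promoters (assembly GRCm38.p6, 250 bases before to 50 after the start site) were searched on both strands for a direct repeat of half-sites spelled AGGTCA or AGTTCA, or either of these with G as its first letter, with a spacer of 5 bases (DR5). Capitals mark the match, which runs from 53 to 37 bases before the start site of Rarb (GRCm38.p6 chr14:16575427-16575726, minus strand, printed 5′ to 3′ along the gene).
Rarb: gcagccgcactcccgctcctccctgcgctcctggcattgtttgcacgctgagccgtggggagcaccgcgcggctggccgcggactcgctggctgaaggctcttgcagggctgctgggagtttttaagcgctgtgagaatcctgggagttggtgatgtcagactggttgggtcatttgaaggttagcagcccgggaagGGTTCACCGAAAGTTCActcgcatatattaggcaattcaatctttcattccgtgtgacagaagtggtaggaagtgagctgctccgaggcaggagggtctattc
Of the 192 genes called higher that had a promoter in the table, 1 (0.521%) held such a repeat, which was Rarb itself, against 5 of 9576 genes tested (0.0522%), 0 of 147 genes called lower, and 0.0974% of all 32851 promoters. A match is only a match of letters in this window, and elements elsewhere were not searched.

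**Figure D2:**
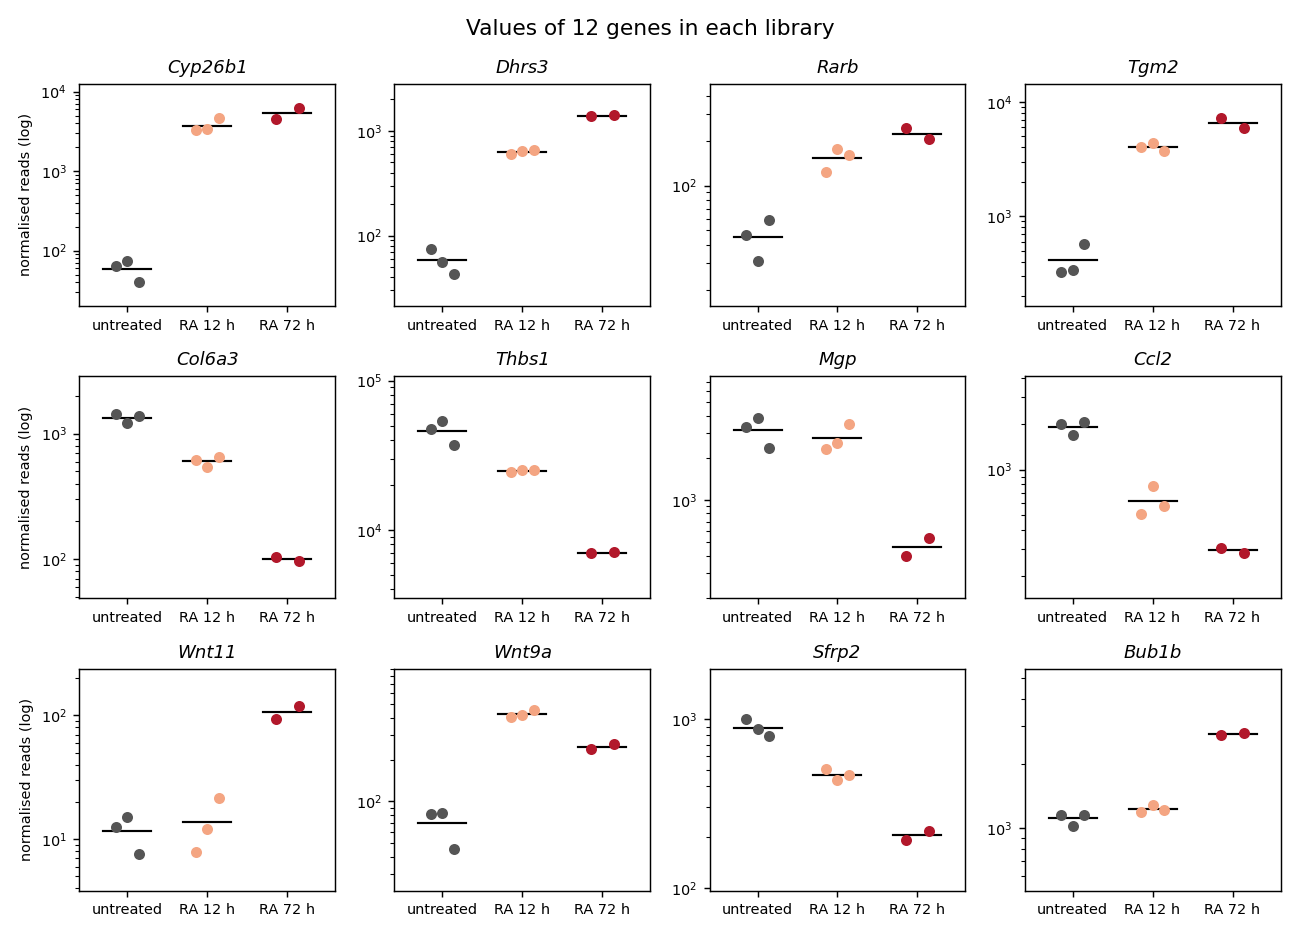
Values of 12 genes in each library (vertical axes, quantile-normalised reads on log scales that differ between panels), with 1 point per library and a bar at the group mean: untreated (grey), RA 12 h (orange) and RA 72 h (red). Cyp26b1, Rarb and Tgm2 were near their RA 72 h level at RA 12 h, whereas Mgp, Wnt11 and Bub1b at RA 12 h overlapped the untreated values or lay close to them.

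Outside retinoid metabolism the largest rise was that of Ddx25. Ddx25, an RNA helicase best known from male germ cells, was close to the floor untreated at 3.38, 3.38 and 6.5 and read 521 and 427 at RA 72 h (log2 change 6.50 ± 0.26, adjusted p 5.35e-09). It stood at 107, 95.4 and 111 at RA 12 h, and rose further between the RA times (difference 2.17 ± 0.26, adjusted p 0.00026). Prss35, a serine protease homologue, went from 35.1, 11.9 and 16.5 to 1308 and 1183 (log2 change 5.95 ± 0.31, adjusted p 5.77e-08). Tgm2, the tissue transglutaminase that cross-links proteins, went from 328, 338 and 572 to 7256 and 5884 (log2 change 4.03 ± 0.20, adjusted p 4.88e-08).

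Inmt, a methyltransferase of indole amines, was at 2.5, 1.0 and 1.75 untreated, with 1 library at the lowest value of the scale, and at 40.4 and 50.3 at RA 72 h (log2 change 4.10 ± 0.37, adjusted p 1.07e-05). Tbx2, a T-box transcription repressor, went from 4.88, 2.0 and 3.75 to 36.9 and 43.1 (log2 change 3.22 ± 0.40, adjusted p 0.000147). Sord, which oxidises sorbitol to fructose, went from 496, 577 and 425 to 2833 and 3879 (log2 change 2.74 ± 0.19, adjusted p 9.5e-07). Of these, Tbx2 (1.67, adjusted p 0.027) and Sord (1.48, adjusted p 0.000403) were also higher at RA 72 h than at RA 12 h. The remaining large rises were those of 6330406I15Rik, which RefSeq names Medag and links with adipocyte formation (3.58, from 67.6, 64.3 and 99.3 to 1011 and 826), Gdpd5, a glycerophosphodiesterase (3.35, from 43.3, 59.9 and 72.4 to 619 and 571), and AA467197 (3.20, from 14, 15 and 5.63 to 88.3 and 128). The processed pseudogene AC164000.2 went from 17, 5.25 and 46.5 to 149.6 and 100.4 (log2 change 2.82 ± 0.57, adjusted p 0.0052), and its reads cannot be told apart from those of its parent gene or of Rab38, which it overlaps. The call of AC164000.2 was lost when RA 72 h replicate 1 (2.54) was left out. The fold change of AC164000.2 moved by over 1.5 times, with its call kept, when untreated replicate 2 (2.08) or untreated replicate 3 (3.54) was left out (log2 changes in parentheses).

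Values this low move with the pseudocount: with 10 in place of 1, the log2 changes were 5.07 for Ddx25, 2.23 for Inmt, 1.89 for Tbx2, 2.47 for AA467197 and 2.22 for AC164000.2, fold changes smaller by over 1.5 times that were still called.

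The largest fall was that of Penk1. Penk1, which RefSeq names Penk and which encodes the precursor of the enkephalin opioid peptides, fell from 601, 606 and 658 untreated to 24.8 and 30.8 at RA 72 h (log2 change -4.44 ± 0.15, adjusted p 1.65e-09). The groups were far apart, and the RA 12 h values, 181, 210.4 and 171, lay between them. 1190002H23Rik, named Rgcc in RefSeq and encoding a cell cycle regulator, fell from 373, 363 and 425 to 33.3 and 41.1 (log2 change -3.35 ± 0.17, adjusted p 4.88e-08). Stmn2, a neuronal protein that destabilises microtubules, fell from 75.4, 66.9 and 44.3 to 4.63 and 8.0 (log2 change -3.12 ± 0.33, adjusted p 3.66e-05), and it was the one called of 5 tested neural markers.

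Gper, a membrane receptor for oestrogen, fell from 28.5, 35.9 and 16.5 to 1.0 and 4.88, with RA 72 h replicate 1 at the lowest value of the scale (log2 change -2.96 ± 0.54, adjusted p 0.00279). Slpi, an inhibitor of leukocyte proteases, fell from 99, 104 and 103 to 14.1 and 11.5 (log2 change -2.90 ± 0.22, adjusted p 2.29e-06). Hod, a homeodomain protein named Hopx in RefSeq, fell from 45.5, 49.4 and 48.8 to 6.0 and 6.63 (log2 change -2.74 ± 0.29, adjusted p 4.14e-05). Lrrc17 (-2.85, from 254, 263 and 308 to 27.8 and 50), the small matrix proteoglycan Optc (-2.84, from 35.9, 39.6 and 26.8 to 4.38 and 3.38) and Dact2, a modulator of Wnt and TGF-beta signalling (-2.80, from 108, 135 and 135 to 18.4 and 16.1), fell by similar amounts. Of 43 listed genes of neuropeptides and secreted peptide precursors, 10 were tested. Of these, 2 were called lower and none higher, against 1.54% and 2.14% of all genes tested. The median log2 change over the 10 was -0.15. The 2 called were Penk1 and Pthlh. Pthlh, which encodes a parathyroid hormone-like protein, read 21.6, 25.1 and 14 untreated and 3.88 and 9.0 at RA 72 h (log2 change -1.57 ± 0.42, adjusted p 0.0262). The call of Pthlh was lost when untreated replicate 1 (-1.50), untreated replicate 2 (-1.40) or RA 72 h replicate 1 (-1.05) was left out. The fold change of Gper moved by over 1.5 times, with its call kept, when RA 72 h replicate 1 (-2.18) or RA 72 h replicate 2 (-3.74) was left out (log2 changes in parentheses). With a pseudocount of 10 the log2 changes were -1.49 for Gper, -2.13 for Stmn2, -2.29 for Slpi, -1.83 for Hod and -1.66 for Optc, all still called, and -0.88 for Pthlh, which was not.

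Collagen genes were called in both directions, and Col6a3 fell furthest among those tested. Of 33 collagen genes tested, 6 were called lower and 2 higher (24.2% called, against 3.68% of all genes tested), and the median log2 change was -0.02. Col6a3, the alpha 3 chain of collagen VI, a beaded filament that surrounds cells (mm9 chr1:92663435-92740529), fell from 1439, 1218 and 1381 to 104 and 97.3 (log2 change -3.73 ± 0.13, adjusted p 1.65e-09). At RA 12 h it read 617, 541 and 656, so it fell further between the RA times (difference -2.57 ± 0.13, adjusted p 3.38e-07). Col6a2, the alpha 2 chain (mm9 chr10:76058507-76086375), fell from 752, 942 and 1042 to 231 and 212 (log2 change -2.02 ± 0.14, adjusted p 9.16e-07). Col6a1 was not analysed here.

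Of the fibrillar collagens, Col3a1 fell from 21429, 19989 and 22110 to 7665 and 8071 (log2 change -1.43 ± 0.13, adjusted p 8.2e-06). Col5a3, a minor chain that regulates fibril width, fell from 103, 136 and 123 to 33.8 and 26.8 (log2 change -1.96 ± 0.20, adjusted p 2.82e-05). The chains of collagen I, the main fibre of the matrix, moved less. Col1a1 read 40456, 40456 and 60831 untreated and 51846 and 40456 at RA 72 h, with overlapping groups (log2 change -0.02 ± 0.19, adjusted p 0.97). Col1a2 read 25760.4, 27694 and 28274 against 20412 and 18923, lower by less than 2-fold (log2 change -0.47 ± 0.12, adjusted p 0.024).

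Col7a1, which forms the anchoring fibrils below epithelia, read 91.4, 76.9 and 78.4 untreated and 139.6, 116 and 108 at RA 12 h, and fell to 23 and 28.9 at RA 72 h (log2 change from untreated -1.63 ± 0.19, adjusted p 0.0001). The 2 collagens called higher were Col8a1, a network collagen of vessel walls, from 622, 547 and 564 to 1920 and 2066 (log2 change 1.79 ± 0.14, adjusted p 2.35e-06), and Col14a1, which binds the surface of fibrils, from 29.6, 16.8 and 38.1 to 70.5 and 54.8 (log2 change 1.19 ± 0.30, adjusted p 0.0212). The call of Col14a1 was lost when untreated replicate 2 (0.87), RA 72 h replicate 1 (1.01) or RA 72 h replicate 2 (1.37) was left out. The one further collagen called was lower by 1.15 on the log2 scale.

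Of 40 non-collagen matrix genes tested, 7 were called lower and 6 higher (32.5% called, against 3.68% of all genes tested). With no fold minimum 15 were lower and 9 higher, against 5.41% and 6.08% of all genes tested. The median log2 change was -0.20. Thbs1, thrombospondin 1, which binds cells and activates latent TGF-beta, fell from 47208, 53627 and 36832 to 6948 and 7089 (log2 change -2.69 ± 0.15, adjusted p 1.2e-07). Mgp, matrix Gla protein, an inhibitor of calcification, read 3308, 3830 and 2338 untreated and 2306, 2536 and 3484 at RA 12 h, and fell to 396 and 532 at RA 72 h (log2 change -2.75 ± 0.21, adjusted p 2.35e-06). Its groups overlapped between untreated and RA 12 h, and the fall lay between the RA times (difference -2.57 ± 0.21, adjusted p 2.21e-05). Postn, periostin, fell from 1002, 818 and 1099 to 358 and 337 (log2 change -1.47), and Vcan, the large proteoglycan versican, from 404, 393 and 369.5 to 157 and 130 (log2 change -1.44). The 3 other called genes had changes of -1.31 to -1.15.

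Fbln7, a short fibulin that binds cells, was the matrix gene that rose most, from 37.3, 26.9 and 25.8 to 556 and 613 (log2 change 4.26 ± 0.18, adjusted p 1.08e-08). Loxl2, which cross-links collagen through its lysines, rose from 58.4, 56.8 and 63.6 to 296 and 279 (log2 change 2.25 ± 0.14, adjusted p 3.85e-07), and was as high at RA 12 h, 277, 247 and 254. Efemp1, another fibulin, rose from 79, 77.8 and 81.3 to 297 and 289 (log2 change 1.87), and Nid1, nidogen of basement membranes, from 2892, 3059 and 2371 to 5981 and 7665 (log2 change 1.30). The 2 further genes called higher had log2 changes of 1.04 and 1.07. The 38 matrix protease and inhibitor genes tested had a median log2 change of -0.16. Of these, 3 were called higher and none lower (7.89% called, against 3.68% of all genes tested). They were Mmp1b, a matrix metalloproteinase, at 6.63, 1.5 and 4.38 untreated and 17.8 and 26.8 at RA 72 h (log2 change 2.29), Adamts9, a protease of versican, from 31, 26.9 and 23.3 to 82.6 and 97.1 (1.70), and Plau, the urokinase plasminogen activator, from 669, 573 and 575 to 1582 and 1425 (1.31). Mmp1b fell under the level for testing when RA 72 h replicate 1 or RA 72 h replicate 2 was left out. With a pseudocount of 10 the log2 change of Mmp1b was 1.19.

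**Figure D3:**
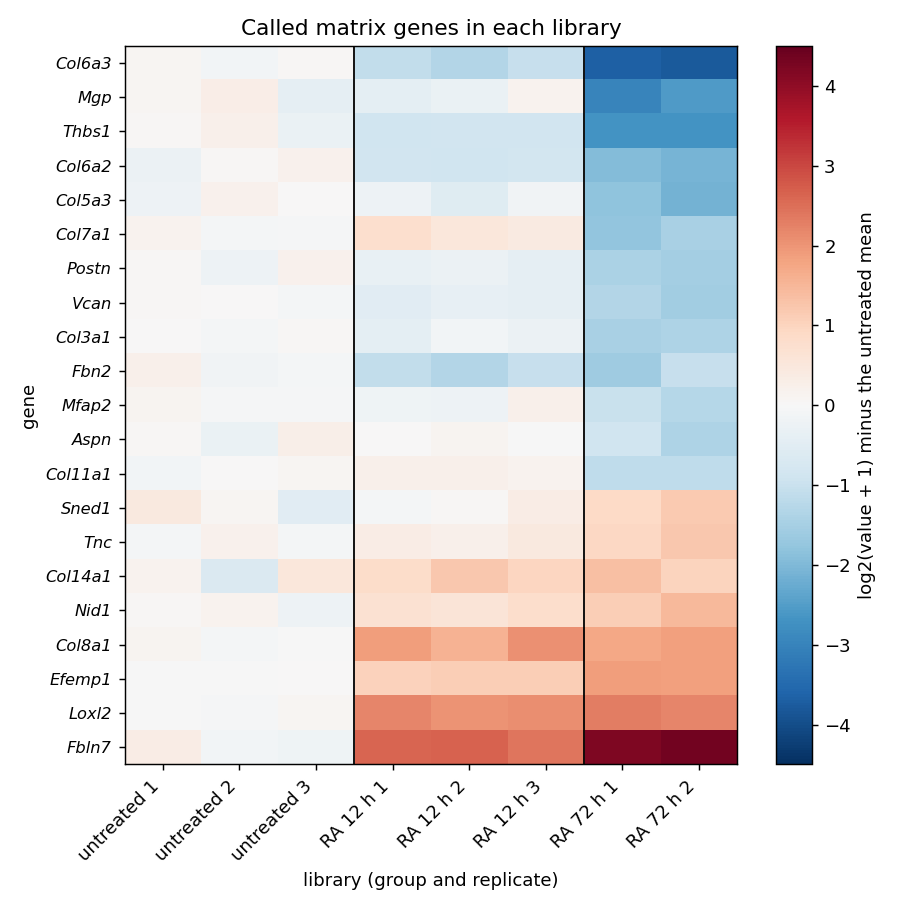
Log2(value + 1) minus the untreated mean (colour, blue lower and red higher) of the 21 called collagen and matrix glycoprotein genes (rows) in each of the 8 libraries (columns, by group and replicate). Mgp and Col5a3 turn blue mainly at RA 72 h, Col7a1 is pale red at RA 12 h and blue at RA 72 h, and Loxl2 and Col8a1 are as red at RA 12 h as at RA 72 h.

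Wnt proteins are secreted ligands that bind Frizzled receptors, R-spondins strengthen their signal through Lgr receptors, and secreted Frizzled-related proteins and Notum weaken it. Of 44 tested Wnt ligands, receptors and modulators, 8 were called higher and 2 lower (22.7% called, against 3.68% of all genes tested), with a median log2 change of 0.01. Wnt11, a ligand of the beta-catenin independent branch, read 12.5, 15 and 7.63 untreated, 7.88, 12.1 and 21.6 at RA 12 h and 93.3 and 119.6 at RA 72 h (log2 change from untreated 3.12 ± 0.40, adjusted p 0.000172). Its rise lay between the RA times (difference 2.95 ± 0.40, adjusted p 0.000654), and its groups overlapped before that. With a pseudocount of 10 the log2 change of Wnt11 was 2.43. Wnt9a took the other course, at 81.5, 82 and 45.3 untreated, 403, 422 and 453 at RA 12 h and 237 and 258 at RA 72 h (log2 change from untreated 1.86 ± 0.22, adjusted p 8.35e-05), though its difference between the RA times did not pass the test (-0.78 ± 0.22, adjusted p 0.0541).

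Of the R-spondins, Rspo3 rose from 79.6, 81.6 and 57.3 to 234 and 289 (log2 change 1.84 ± 0.20, adjusted p 3.85e-05), with 67.4, 78.8 and 81.8 at RA 12 h. Rspo2 was lower by close to 2-fold, 454, 455 and 431 untreated and 221 and 226 at RA 72 h (log2 change -1.0 ± 0.12, adjusted p 0.000136). Rspo2 was called when untreated replicate 3 (-1.02) or RA 72 h replicate 2 (-1.01) was left out. Rspo1 (12.5, 3.38 and 11 untreated, 7.63 and 4.88 at RA 72 h) and Rspo4 (3.38, 1.0 and 5.88 against 2.88 and 3.13) were not tested. Of their receptors, Lgr6 rose from 12.3, 18.4 and 18.5 to 65.3 and 55 (log2 change 1.83 ± 0.26, adjusted p 0.000416) and Lgr4 from 251, 215 and 213 to 459 and 474 (log2 change 1.04 ± 0.12, adjusted p 8.37e-05). Lgr5 read 19.9, 26.8 and 29.6 against 26.1 and 18.4 (log2 change -0.19, adjusted p 0.785). The 3 further genes of the list called higher had log2 changes of 1.15 to 1.62.

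The 2 genes of the list called lower encode inhibitors of the pathway. Sfrp2, which binds Wnt ligands (mm9 chr3:83570243-83578238), fell from 993, 875 and 794 untreated to 192 and 217 at RA 72 h (log2 change -2.11 ± 0.13, adjusted p 3.55e-07), with 505, 434 and 467 at RA 12 h. Notum, an enzyme that removes the lipid of Wnt proteins, read 55.5, 50.1 and 63.1 untreated and 27.9 and 26.9 at RA 72 h (log2 change -1.01 ± 0.23, adjusted p 0.0106). The call of Notum was lost when untreated replicate 3 (-0.92), RA 72 h replicate 1 (-1.03) or RA 72 h replicate 2 (-0.98) was left out. Ctnnb1, the gene of beta-catenin, read 7987, 7256 and 6070.3 against 6034 and 6817, with overlapping groups (log2 change -0.14, adjusted p 0.637). Sox2, a transcription factor of stem cells, was higher by less than 2-fold, 101, 73.4 and 95.8 untreated and 159 and 135 at RA 72 h (log2 change 0.71, adjusted p 0.044).

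The Hippo kinases keep the coactivators YAP1 and WWTR1 (TAZ) out of the nucleus at high cell density. Of 29 tested genes of the core pathway, 1 was called higher and none lower (3.45% called, against 3.68% of all genes tested). Their median log2 change was 0.04. With no fold minimum 6 were higher and none lower, against 6.08% and 5.41% of all genes tested. The gene called was Amotl1, an angiomotin that binds YAP1, from 1103, 1067 and 1227 to 2417 and 2259.5 (log2 change 1.05 ± 0.10, adjusted p 2.1e-05), a change just past 2-fold. The call of Amotl1 was lost when RA 72 h replicate 1 (1.00) was left out. Rassf1, which activates the Hippo kinases, was higher by less than 2-fold, 462, 551 and 499 untreated and 919 and 922 at RA 72 h (log2 change 0.87, adjusted p 0.000221). Wwc1 (Kibra), an upstream activator, read 880.4, 667 and 938 untreated and 1238 and 999 at RA 72 h and did not pass the test (log2 change 0.44 ± 0.15, adjusted p 0.0848). The coactivators themselves also did not pass: Yap1 read 1171, 1179 and 1161 against 1148 and 1231 (log2 change 0.02 ± 0.10, adjusted p 0.927), and Wwtr1 1264, 1164 and 1016 against 1346 and 1544 (log2 change 0.33 ± 0.12, adjusted p 0.112).

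The 27 tested targets of YAP1 and its TEAD partners had a median log2 change of 0.07. With no fold minimum 7 were higher and 2 lower, against 6.08% and 5.41% of all genes tested. Of the 27, 2 were called higher and none lower (7.41% called, against 3.68% of all genes tested). They were Wisp2, named Ccn5 in RefSeq, a CCN protein, which read 525, 510.1 and 551 untreated, 533, 509 and 487 at RA 12 h and 1529 and 1479.6 at RA 72 h (log2 change from untreated 1.51 ± 0.11, adjusted p 1.07e-06), and Tgfb2. The most used reporters of the pathway, which are CCN genes as well, did not pass the test. Ctgf read 9583, 10902 and 8556 untreated and 12193 and 12193 at RA 72 h (log2 change 0.34, adjusted p 0.171), and Cyr61 6236, 7023 and 6504 against 5824 and 6146 (log2 change -0.14, adjusted p 0.555).

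TGF-beta and bone morphogenetic proteins (BMPs) are ligands of one family that signal through SMAD proteins. Of 54 tested genes, 4 were called higher and 4 lower (14.8% called, against 3.68% of all genes tested). Their median log2 change was 0.03. Among the ligands, Gdf5, a growth factor of joints, rose from 141, 129.9 and 107 to 314 and 332 (log2 change 1.36 ± 0.15, adjusted p 5.76e-05), Tgfb2 rose from 107, 93.1 and 84.9 to 191 and 216 (1.10), and Bmp4 fell from 2215, 2217 and 2051 to 1077 and 1057 (log2 change -1.02 ± 0.12, adjusted p 9.48e-05). Chrd, an antagonist that binds BMPs outside the cell, fell from 24, 24.6 and 21.1 to 5.25 and 6.75 (log2 change -1.80, or -1.06 with a pseudocount of 10). Inside the cell, the transducer Smad3 rose from 776, 856 and 959 to 1914 and 1827 (1.12), and Id2, an inhibitor of helix-loop-helix factors, from 3154, 2917 and 4168 to 8647 and 7373 (1.24). Tgfbi, a matrix protein induced by TGF-beta, fell from 83, 92.9 and 87.5 to 25.8 and 40.9 (-1.41). The call of Bmp4 was lost when untreated replicate 1 (-1.0) or untreated replicate 2 (-1.0) was left out.

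Of 67 tested genes of the FGF, PDGF, VEGF, EGF and related growth factor axes, 8 were called higher and 3 lower. This was 16.4% called, against 3.68% of all genes tested, and the median log2 change was 0.22. Pdgfb, a ligand of the platelet-derived growth factor receptors, rose from 339.5, 358 and 274 to 1006 and 994 (log2 change 1.63 ± 0.13, adjusted p 3.79e-06). Errfi1, a feedback inhibitor of the EGF receptor, rose from 359, 416 and 319.9 to 1058 and 1218 (log2 change 1.64 ± 0.14, adjusted p 5.12e-06). The ligand Nrg3 went from 136, 119.9 and 335 to 722 and 399.8 (1.60), with a wide spread among the untreated values, and Fgf18 from 5.88, 1.0 and 8.38 to 19.9 and 19.9 (2.05), with untreated replicate 2 at the lowest value of the scale.

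Among the genes called lower, Dusp6, a phosphatase of ERK that FGF signalling induces, fell from 137, 127 and 143 to 55.4 and 64.1 (-1.17). Igfbp2, a binding protein of insulin-like growth factors, read 239.9, 317 and 389.6 untreated, 522, 346 and 347 at RA 12 h and 168 and 122 at RA 72 h (-1.11). The call of Nrg3 was lost when untreated replicate 1 (1.42) or RA 72 h replicate 1 (1.18) was left out. The fold change of Fgf18 moved by over 1.5 times, with its call kept, when untreated replicate 2 (1.38) was left out (log2 changes in parentheses). Fgf18 fell under the level for testing when RA 72 h replicate 1 or RA 72 h replicate 2 was left out. The call of Igfbp2 was lost when untreated replicate 3 (-0.94) or RA 72 h replicate 2 (-0.88) was left out. With a pseudocount of 10 the log2 change of Fgf18 was 1.02. The 4 further genes called higher had log2 changes of 1.07 to 1.39.

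Of 58 tested guidance cues and receptors, 4 were called higher and none lower (6.9% called, against 3.68% of all genes tested). Their median log2 change was 0.02. The netrins Ntn4 and Ntn1, secreted cues of axons and vessels, rose from 44.4, 41.8 and 43.1 to 155 and 167 (log2 change 1.88 ± 0.17, adjusted p 1.2e-05) and from 243, 268 and 294 to 748 and 676 (1.41 ± 0.12, adjusted p 6.87e-06). Sema3c, a secreted semaphorin, rose from 232, 209 and 259 to 805 and 683 (1.67 ± 0.14, adjusted p 6.91e-06), and Sema6a, a membrane semaphorin, went from 9.13, 12.8 and 24.3 to 49.1 and 38.1 (1.54 ± 0.39, adjusted p 0.0201). The call of Sema6a was lost when untreated replicate 1 (1.25), RA 72 h replicate 1 (1.36) or RA 72 h replicate 2 (1.72) was left out.

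**Figure D4:**
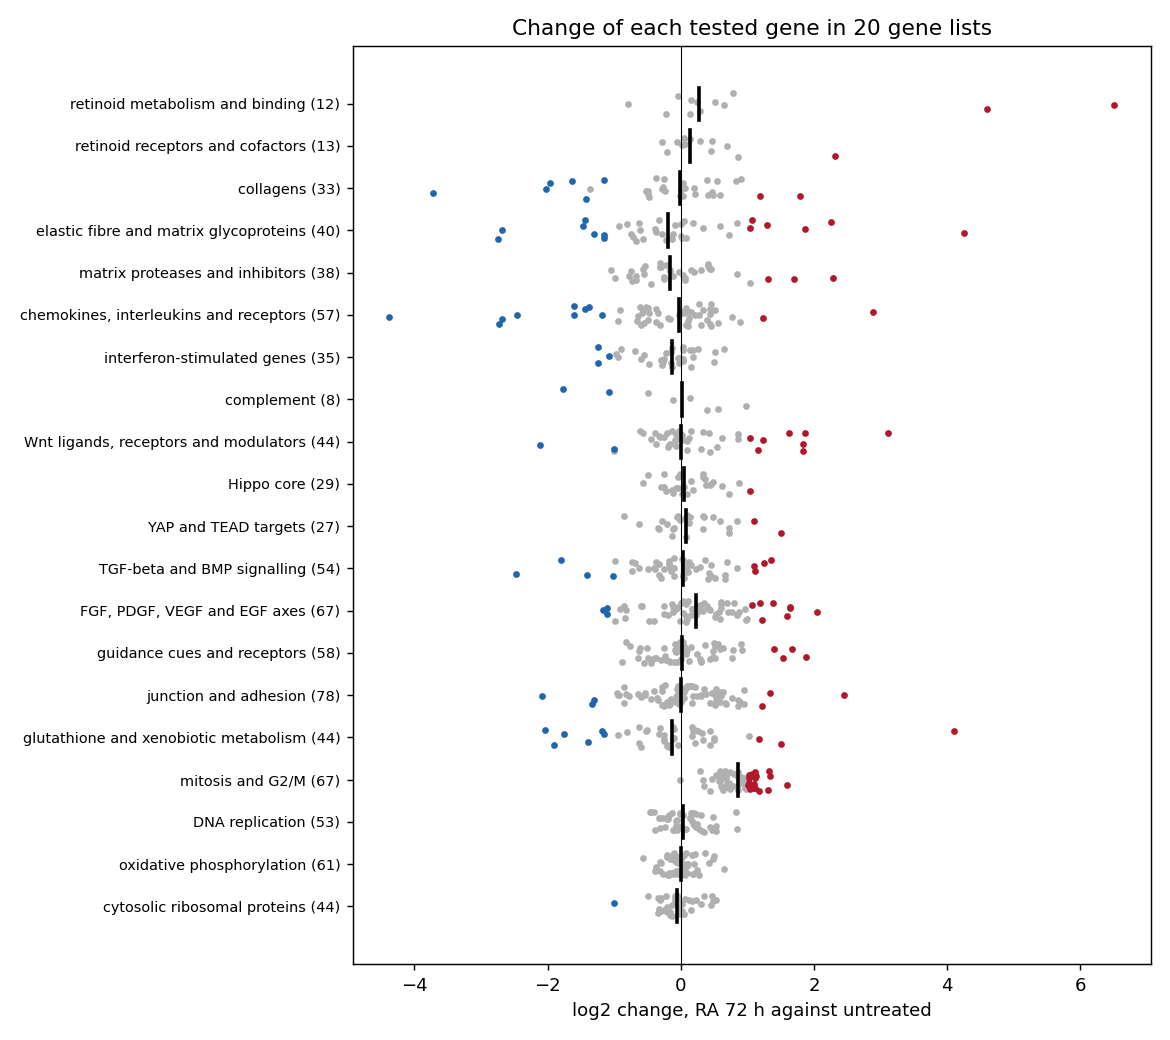
Log2 change at RA 72 h against untreated (horizontal axis) of each tested gene in 20 gene lists (rows, with the number tested), where red and blue points are genes called higher and lower, grey points are not called and black bars are medians. The median of the mitosis and G2/M list lies at 0.86, and the other 19 medians lie between -0.20 and 0.27.

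Ccl5 fell furthest among the chemokine, interleukin and receptor genes, and Il1rn rose furthest. Of 57 tested of 161 listed chemokine, interleukin and receptor genes, 9 were called lower and 2 higher, although the median log2 change was -0.02. This was 19.3% called, against 3.68% of all genes tested. Ccl5, which attracts T cells and monocytes, fell from 88.5, 151 and 82.4 to 4.75 and 3.38, close to the floor (log2 change -4.38 ± 0.30, adjusted p 9.87e-07, and -3.01 with a pseudocount of 10). Ccl2, the main chemokine for monocytes (mm9 chr11:81849073-81850955), fell from 1986, 1696 and 2063 to 305 and 285 (log2 change -2.69 ± 0.16, adjusted p 2.39e-07), and its neighbour in the same cluster, Ccl7, from 2187, 2243 and 1686 to 285 and 326 (log2 change -2.73 ± 0.15, adjusted p 8.86e-08). Il1rl1, the receptor of interleukin 33, fell from 4599.8, 4409.8 and 3628 to 813 and 716 (log2 change -2.46 ± 0.12, adjusted p 4.88e-08). The 5 other genes called lower had log2 changes of -1.61 to -1.18.

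The 2 genes of the list called higher were Il1rn, which encodes the natural antagonist of the interleukin 1 receptor and went from 96.9, 112 and 152 to 903 and 855 (log2 change 2.88 ± 0.17, adjusted p 1.82e-07), and Tnfrsf1b, a receptor of tumour necrosis factor, from 66.8, 88.3 and 67.6 to 161 and 189 (1.23 ± 0.17, adjusted p 0.000342). The 35 tested interferon-stimulated genes had a median log2 change of -0.14. With no fold minimum 5 were lower and 1 higher, against 5.41% and 6.08% of all genes tested. The 1 higher was Ifit2 (log2 change 0.65, adjusted p 0.00462), named here after its value was seen. Of the 35, 3 were called lower and none higher (8.57% called, against 3.68% of all genes tested). They were H2-K1, which presents antigen, from 308, 267 and 347 to 137 and 119.9 (-1.25 ± 0.14, adjusted p 6.78e-05), Ifit1, a sensor of viral RNA, from 55.5, 58.4 and 62.6 to 20.5 and 28.8 (-1.24 ± 0.24, adjusted p 0.00381), and Irf7, a factor that drives interferon genes, from 85.5, 106 and 71.5 to 37.9 and 43.1 (-1.08 ± 0.26, adjusted p 0.0164). The call of Ifit1 was lost when RA 72 h replicate 1 (-1.01) was left out. The call of Irf7 was lost when untreated replicate 1 (-1.09), untreated replicate 2 (-0.94), RA 72 h replicate 1 (-0.99) or RA 72 h replicate 2 (-1.17) was left out. Of 8 tested complement genes, 2 were called lower and none higher (25.0% called, against 3.68% of all genes tested). Their median log2 change was 0.01. C3, the central component, fell from 135, 98 and 128 to 32.9 and 35.5 (-1.77 ± 0.19, adjusted p 3.87e-05) and C1r, a protease of the first component, from 436, 428 and 471 to 213 and 208 (-1.07 ± 0.11, adjusted p 3.85e-05). At RA 12 h C3 read 111, 100.3 and 92.1 and C1r 396, 396 and 381. With no fold minimum 2 complement genes were higher and 2 lower, against 6.08% and 5.41% of all genes tested. The 2 higher were named here after their values were seen: Colec12, a collectin (log2 change 0.98, adjusted p 0.00542), and Masp1, a protease of the lectin pathway (0.56, adjusted p 0.0156). Haematopoietic markers were scarce: 3 of 11 had a mean of at least 10.

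Genes of mitosis and the G2/M phase rose as a group at RA 72 h. All 67 listed genes were tested, 21 were called higher (31.3%, against 2.14% of all genes tested), none was called lower, and 62 had a higher level at an adjusted p below 0.05 with no fold minimum (6.08% of all genes tested). The median log2 change was 0.86, with 66 of 67 genes above 0, against -0.02 over all genes tested. Set against the untreated mean, the median over the list was 0.03, -0.02 and -0.00 in the untreated libraries, -0.03, 0.06 and 0.05 in the RA 12 h libraries, and 0.87 and 0.89 in the RA 72 h libraries. Both RA 72 h libraries stood apart from the other 6.

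Cdc20, the activator of the anaphase-promoting complex, rose from 43.5, 55.5 and 24.6 to 101 and 143 (log2 change 1.60 ± 0.30, adjusted p 0.00313). The call of Cdc20 was lost when RA 72 h replicate 2 (1.35) was left out. Ckap2, which binds spindle microtubules, rose from 928, 680.1 and 810.4 to 2173 and 1891 (log2 change 1.34 ± 0.13, adjusted p 2.13e-05). Kif20a, a kinesin of cytokinesis, rose from 653, 749 and 539 to 1368 and 1900.4 (log2 change 1.33 ± 0.17, adjusted p 0.000207). Bub1b, a kinase of the spindle checkpoint, rose from 1156, 1020.4 and 1158 to 2729 and 2779 (log2 change 1.31 ± 0.10, adjusted p 3.46e-06), with 1187, 1290.1 and 1211 at RA 12 h. The 17 other called members had log2 changes of 1.01 to 1.17. Mki67, the gene of the Ki-67 antigen of cycling cells, was higher by less than 2-fold, 137, 124 and 145 untreated and 264 and 229 at RA 72 h (log2 change 0.86 ± 0.15, adjusted p 0.00229).

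The DNA replication list held no call. Of 53 tested genes, 15 had an unadjusted p below 0.05 in limma, as did 3031 of all 12687 genes tested. At an adjusted p below 0.05 with no fold minimum, 4 were higher (6.08% of all genes tested) and none lower (5.41%). The median log2 change was 0.03. Tk1, thymidine kinase, read 599, 591 and 801 untreated and 1349.9 and 1009 at RA 72 h (log2 change 0.83 ± 0.19, adjusted p 0.0129), and Rpa1, which binds single-stranded DNA, 278, 301 and 203 against 421 and 511 (log2 change 0.85 ± 0.18, adjusted p 0.00608). Tk1 was called when RA 72 h replicate 2 (1.04) was left out. Of 7 tested clustered histone genes, 2 linker histones were called higher (28.6% called, against 3.68% of all genes tested). Hist1h1c rose from 2075, 1876 and 2314 to 5418 and 4814 (log2 change 1.30 ± 0.12, adjusted p 1.46e-05). Hist1h1d rose from 19.9, 18.4 and 21.6 to 69.6 and 69.6 (log2 change 1.76 ± 0.26, adjusted p 0.000541).

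In bulk libraries, a larger share of cells in a phase and more RNA per cell in that phase cannot be told apart. In separate assays of C3 cells, the study reported no significant effect of RA on cell counts or BrdU incorporation. It also reported an unchanged cell cycle by FACS. How those assays relate to these RNA values was not tested. Of 20 tested D-type cyclins, inhibitors of cyclin-dependent kinases and related genes, 1 was called (5.0%, against 3.68% of all genes tested). This was Cdkn1a, the inhibitor p21, which rose from 40.5, 42.1 and 24.6 to 93.8 and 139 (log2 change 1.69 ± 0.25, adjusted p 0.000603) and had reached 117, 109 and 137 at RA 12 h. Ccnd1, cyclin D1, was higher by less than 2-fold, 4365, 5181 and 5097 untreated and 7338 and 6489 at RA 72 h (log2 change 0.50 ± 0.12, adjusted p 0.0147), and Btg1, an antiproliferative factor, lower by less than 2-fold, 3441, 3029 and 2685 against 1600.3 and 1976 (log2 change -0.77 ± 0.15, adjusted p 0.0037).

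Many genes that peak in G2 and mitosis share 2 promoter elements in textbook accounts, the cell cycle genes homology region (CHR), spelled TTTGAA, and the CCAAT box, so the promoters of 3 called members are printed with their matches. The RefSeq promoters (GRCm38.p6, 300 bases each, printed 5′ to 3′ along the gene) were searched on both strands, and capitals mark TTTGAA or its complement and CCAAT or its complement ATTGG. They are Cdc20 (chr4:118437294-118437593, minus strand), Ckap2 (chr8:22185770-22186069, minus strand) and Bub1b (chr2:118597961-118598260, plus strand).
Cdc20: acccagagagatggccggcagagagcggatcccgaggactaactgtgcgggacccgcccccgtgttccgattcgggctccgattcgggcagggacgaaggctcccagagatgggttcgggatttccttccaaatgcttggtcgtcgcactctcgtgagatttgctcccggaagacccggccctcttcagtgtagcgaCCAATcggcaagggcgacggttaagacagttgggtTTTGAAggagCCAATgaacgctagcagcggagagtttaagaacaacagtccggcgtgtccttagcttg
Ckap2: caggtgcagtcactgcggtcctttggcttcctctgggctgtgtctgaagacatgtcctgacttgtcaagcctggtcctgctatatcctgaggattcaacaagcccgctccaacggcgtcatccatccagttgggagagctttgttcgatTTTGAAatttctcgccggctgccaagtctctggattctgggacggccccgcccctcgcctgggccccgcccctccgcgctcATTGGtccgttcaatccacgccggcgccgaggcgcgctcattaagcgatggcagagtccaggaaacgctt
Bub1b: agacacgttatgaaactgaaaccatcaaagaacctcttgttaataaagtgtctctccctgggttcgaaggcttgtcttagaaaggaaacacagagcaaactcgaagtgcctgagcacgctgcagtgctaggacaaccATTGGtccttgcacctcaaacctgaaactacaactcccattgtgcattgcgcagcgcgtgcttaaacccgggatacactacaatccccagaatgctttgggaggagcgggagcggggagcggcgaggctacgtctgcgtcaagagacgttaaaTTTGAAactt
In Cdc20 the TTTGAA lies 18 to 13 bases before the start site, between 2 CCAAT boxes. In Ckap2 it lies 101 to 96 bases before the start site, and in Bub1b 40 to 45 bases after it. Of the 57 tested mitosis and G2/M genes with a promoter in the table, 36 (63.2%) held TTTGAA, against 5 of 41 DNA replication genes (12.2%), 14.7% of 9576 genes tested and 17.9% of all promoters. CCAAT was found in 42 of the 57 (73.7%), in 58.5% of the replication genes, in 42.9% of genes tested and in 37.4% of all promoters. Within the mitosis list the share with TTTGAA was 58.8% of the 17 called members and 65.0% of the 40 not called. The 3 printed promoters each held both elements, as did 54.4% of the 57 genes, against 7.38% of genes tested. Both elements were held by 52.9% of the called members and 55.0% of those not called. The promoter of Kif20a, also named above, is not printed.

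**Figure D5:**
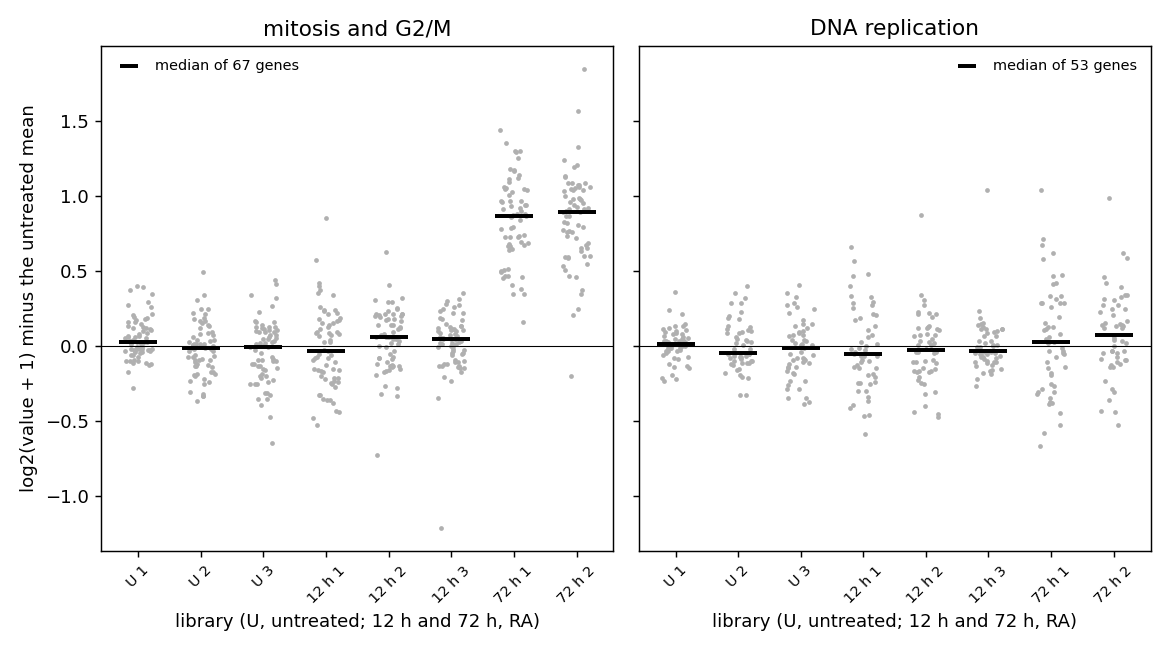
Log2(value + 1) minus the untreated mean (vertical axis) of each tested gene in the mitosis and G2/M list (left, 67 genes) and the DNA replication list (right, 53 genes), in each of the 8 libraries (horizontal axis). Each grey point is a gene and black bars are medians, which for mitosis stand at 0.87 and 0.89 in the RA 72 h libraries and for replication at 0.03 and 0.08.

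Among genes that handle glutathione and foreign compounds, the receptor Ahr and several enzymes fell. Of 44 tested, 6 were called lower and 3 higher (20.5% called, against 3.68% of all genes tested). Their median log2 change was -0.14. Ahr, the aryl hydrocarbon receptor, fell from 447, 408 and 325 to 86.8 and 123 (log2 change -1.91 ± 0.18, adjusted p 1.58e-05), and was as low at RA 12 h, 104, 107 and 122. A link between its fall and the other changes of the list was not tested. Cbr2, a carbonyl reductase, fell from 961, 1033 and 771 to 183 and 268 (log2 change -2.04 ± 0.19, adjusted p 1.07e-05). The glutathione transferases Gstm1, from 958, 1193 and 542 to 206 and 311 (-1.75 ± 0.29, adjusted p 0.00156), and Mgst3, from 355, 431 and 271 to 115 and 151 (-1.39 ± 0.18, adjusted p 0.000247), were also lower, and Gstm1 has close paralogues that could share its reads.

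Opposite to these, Cdo1, which oxidises cysteine, read 34.8, 29 and 25.1 untreated, 17.5, 19.9 and 19.3 at RA 12 h and 79.3 and 90.8 at RA 72 h (log2 change from untreated 1.50 ± 0.24, adjusted p 0.00104). Gsr, glutathione reductase, rose from 2475, 2432 and 1934 to 5070.3 and 5195 (1.18 ± 0.12, adjusted p 3.45e-05), and Inmt was the third gene called higher. The 2 other genes called lower had log2 changes of -1.18 and -1.15. Of 35 tested cholesterol genes, 1 was called (2.86%, against 3.68% of all genes tested). This was Tm7sf2, a reductase of sterol synthesis, which read 49.8, 56 and 46.3 untreated and 20.8 and 28.3 at RA 72 h (-1.03 ± 0.25, adjusted p 0.0144). Abca1, which exports cholesterol, was lower by less than 2-fold, 217, 199.6 and 270.1 against 138 and 113 (-0.86, adjusted p 0.00351), as was the lipid regulator Srebf1, 331, 339.6 and 312 against 239.8 and 210.4 (-0.54, adjusted p 0.013). The call of Tm7sf2 was lost when untreated replicate 2 (-0.96) or RA 72 h replicate 1 (-0.82) was left out. Abca1 was called when RA 72 h replicate 1 (-1.0) was left out.

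Of 78 tested junction and adhesion genes, 3 were called higher and 3 lower (7.69% called, against 3.68% of all genes tested). Their median log2 change was 0.00. F11r, junctional adhesion molecule A of tight junctions, rose from 52.4, 66.4 and 56.4 to 339 and 304 (log2 change 2.45 ± 0.18, adjusted p 1.51e-06), and Mcam, an adhesion molecule of vessels and melanoma, from 354, 347 and 397 to 872 and 834 (1.22 ± 0.13, adjusted p 3.76e-05). Itgb2, an integrin chain of leukocytes, went from 11, 7.25 and 10.3 to 20.5 and 31 (1.34 ± 0.31, adjusted p 0.0131). The genes called lower had under 60 reads in every library: Cldn1, a claudin of tight junctions (-2.09, from 21.8, 23 and 15.1 to 4.38 and 3.38), Gja4, a connexin (-1.33, from 56.3, 36.9 and 28.8 to 13.4 and 16.8), and Itga2b, an integrin chain of platelets (-1.31, from 24.6, 24.9 and 17.6 to 9.13 and 7.63). The call of Itgb2 was lost when RA 72 h replicate 2 (1.05) was left out. The call of Cldn1 was lost when untreated replicate 1 (-2.02), untreated replicate 2 (-1.98), RA 72 h replicate 1 (-2.24) or RA 72 h replicate 2 (-1.94) was left out. The call of Gja4 was lost when untreated replicate 1 (-1.07) or RA 72 h replicate 1 (-1.18) was left out. The call of Itga2b was lost when untreated replicate 1 (-1.23), untreated replicate 2 (-1.23), RA 72 h replicate 1 (-1.42) or RA 72 h replicate 2 (-1.19) was left out. With a pseudocount of 10 the log2 change of Cldn1 was -1.10.

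Of 40 tested contractile and smooth muscle genes, 1 was called (2.5%, against 3.68% of all genes tested). With no fold minimum 1 was higher and 6 were lower, against 6.08% and 5.41% of all genes tested. The gene called was Tpm1, a tropomyosin that stabilises actin filaments, from 19989, 18923 and 22547 to 55334 and 55334 (log2 change 1.44 ± 0.14, adjusted p 1.66e-05). Actg2, smooth muscle gamma actin, was lower by less than 2-fold, 223, 188 and 234 untreated and 100 and 122 at RA 72 h (-0.95 ± 0.16, adjusted p 0.00151). Of 24 tested immediate early genes, 1 was called (4.17%, against 3.68% of all genes tested). This was Klf2, a Krüppel-like factor, which fell from 29.3, 35.6 and 18.1 to 4.88 and 2.38 (-2.64 ± 0.38, adjusted p 0.000513, and -1.44 with a pseudocount of 10). Dusp1, a phosphatase of MAP kinases, was higher by less than 2-fold, 3887, 2852 and 3088 against 7303 and 5445 (0.96 ± 0.15, adjusted p 0.0011). Actg2 was called when untreated replicate 2 (-1.04) or RA 72 h replicate 2 (-1.09) was left out. Dusp1 was called when untreated replicate 1 (1.09) or RA 72 h replicate 2 (1.17) was left out.

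Of the 3 tested adipocyte markers, 2 were called higher (66.7% called, against 3.68% of all genes tested). This list's summed level was 216 to 297 untreated and 671 in both RA 72 h libraries. Pparg, the nuclear receptor that directs adipocyte formation, rose from 114, 82.6 and 80 to 399 and 318 (log2 change 1.96 ± 0.17, adjusted p 9.08e-06), and Fabp4, a fatty acid carrier, from 117, 99.6 and 118 to 215 and 264 (1.09 ± 0.16, adjusted p 0.000487). Other defining markers of the cell type, Adipoq, Lpl, Cd36, Cidec and Lep, were below 10 in all 5 libraries. The call of Fabp4 was lost when RA 72 h replicate 2 (0.94) was left out. The part of adipocyte-like cells in the other changes was not tested.

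Several lists held few calls or none by limma, at or below the 3.68% of all genes tested. Over all 12687 genes tested, 3031 had an unadjusted p below 0.05 in limma. None of 16 Hox and cofactor genes was called in limma and 2 had an unadjusted p below 0.05, the lowest p being that of Pbx4, 236, 222 and 306 untreated and 404 and 382 at RA 72 h (log2 change 0.64, adjusted p 0.0117), followed by Hoxa10 (0.39, adjusted p 0.0953). None of 18 subunits of TFIID and related complexes was called or had an unadjusted p below 0.05 in limma, Tbp having -0.25 (adjusted p 0.304) and Taf5 0.45 (adjusted p 0.342). Of 61 oxidative phosphorylation genes none was called in limma, 4 had an unadjusted p below 0.05, and Ndufb6 alone passed the adjusted p (0.64, adjusted p 0.00227), ahead of Ndufa5 (0.37, adjusted p 0.0633). Of 44 cytosolic ribosomal protein genes 1 was called, Rps4x, at 33.6, 37.1 and 24.3 untreated and 15 and 15 at RA 72 h (-1.01, adjusted p 0.0314). Its reads may be shared with pseudogene copies, and Rps24 had -0.32 (adjusted p 0.188). The call of Rps4x was lost when untreated replicate 1 (-0.96), untreated replicate 2 (-0.89), RA 72 h replicate 1 (-1.01) or RA 72 h replicate 2 (-1.01) was left out.

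The late response was also set beside the RA 12 h libraries, directly and in the same model. Between RA 72 h and RA 12 h, 192 genes (1.51%) were called, 99 (0.780%) higher and 93 (0.733%) lower at 72 h. Of the 195 genes called lower at RA 72 h against untreated, 64 were also called lower against RA 12 h and none was called the other way. Of the 272 called higher, 66 were also called higher against RA 12 h and none the other way. Both comparisons use the RA 72 h libraries, so these counts are not independent of the calls themselves.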

How the data were processed

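Cells were immortalised TAF4-/- MEFs: 3 libraries without RA, 3 after 12 h of RA and 2 after 72 h. The authors deposited 1 table of normalised read numbers per gene, which are not raw counts. By the study's methods, reads were aligned to mm9 with Tophat and summed per gene from Cufflinks output on Ensembl, then normalised between libraries, while the labels describe a DpnII tag kit. In the values, the 8 columns hold the same sorted values, which is quantile normalisation, so depth is unknown and counting error cannot be given. The authors' average and ratio columns were not used, nor was 1 line without a gene.

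Values were fitted as log2(value + 1) with limma 3.58.1 (R 4.3.3) over all 8 libraries in 3 groups with a variance trend, keeping genes whose mean over the 5 compared libraries reached 10. Tests were two-sided, with Benjamini-Hochberg adjustment over all genes tested, and the fit was tested on simulated data. Named genes were the 15 largest changes each way among called genes whose groups did not overlap and whose mean in the higher group was at least 20, up to 4 called members of each list each way (the 2 of lowest p where fewer than 2 were called), a fixed list of genes the study bears on, and members of their small families. A few genes that the rule names are not reported here. Members and lists were chosen with earlier results of these data known. Coordinates are from GENCODE M1 on NCBIM37 (mm9), which matched 21465 of the 22200 genes (96.7%). Biotypes are those given in the deposited table, and promoters are from RefSeq on GRCm38.p6. Python 3.11.15 with pandas 2.3.3 and numpy 2.4.6 made the counts, and matplotlib 3.10.9 the figures. Alternatives covered the pseudocount, the filter, the samples fitted, a replicate block, the variance trend, the side of the main axis, genomic span, the call rule and each library left out.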

Additional observations from a re-analysis of the deposited data

Results flagged for a closer look

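For 50 of the 138 named genes tested the response differed between the RA times. Their log2 difference of RA 72 h minus RA 12 h passed the same rule in limma (adjusted p below 0.05, at least 2-fold). Of all genes tested 1.51% did so. Many genes were named for large changes in these same RA 72 h libraries, which favours such a pass, so these shares cannot be compared. Both effects are set against the same untreated libraries, so the difference is between the RA groups alone. Groups of 3 and 2 libraries are too small for a check of single libraries that stand apart.

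Among secreted signals and their receptors, RA 72 h was lower by a log2 difference of -3.35 for Ccl5, -2.72 for Penk1, -1.85 for Slpi, -1.80 for Il1rl1, -1.46 for Igfbp2, -1.38 for Chrd, -1.19 for Sfrp2 and -1.05 for Ccl2. Among matrix genes it was -2.57 for Mgp, -2.57 for Col6a3, -2.18 for Col7a1, -2.18 for Optc, -1.83 for Thbs1, -1.65 for Col5a3, -1.18 for Tgfbi, -1.16 for Col6a2, -1.15 for Col3a1, -1.13 for Postn and -1.02 for Vcan. The remaining lower genes were Lrrc17 (-2.38), Klf2 (-2.06), Dact2 (-2.04), Stmn2 (-1.74), C3 (-1.53), Cbr2 (-1.37), 1190002H23Rik (-1.23), H2-K1 (-1.23) and Gstm1 (-1.08).

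In the other direction, genes of mitosis and linker histones were higher at RA 72 h by 1.16 for Bub1b, 1.17 for Ckap2, 1.34 for Kif20a, 1.47 for Cdc20, 1.38 for Hist1h1c and 2.38 for Hist1h1d. Among signals, regulators and matrix genes the difference was 1.07 for Gdf5, 1.55 for Il1rn, 1.56 for Wisp2, 1.67 for Tbx2, 1.77 for Rspo3, 2.95 for Wnt11, 1.70 for Fbln7 and 1.24 for Adamts9. It was 1.14 for Dhrs3, 1.33 for Prss35, 1.48 for Sord, 2.11 for Cdo1, 2.17 for Ddx25, 1.44 for F11r, 1.24 for Mcam and 1.39 for AA467197. Cdo1 differed from untreated at RA 12 h by -0.61 on the log2 scale, which did not pass the test, and its values at the RA times lie on either side of the untreated ones.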

How the results depend on the processing

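The total of 467 called genes stayed between 352 and 511 with a pseudocount of 10, no level filter, the 5 compared libraries alone, no variance trend, the side of the main axis as a term or the trend on genomic span removed, and the 195 genes called lower became 122 with a pseudocount of 10. A mean of at least 50 left 299 genes called, 103 of them lower. Dropping the fold minimum gave 1458 genes (771 higher, 687 lower), and raising it to 3-fold gave 166 (98 higher, 68 lower). Leaving out each library in turn gave totals of 356 to 644, the highest without untreated replicate 3. Without processed pseudogenes, chosen after seeing the data, 453 genes were called.

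Whether replicate numbers pair the libraries could not be told (correlation of deviations -0.186 for number 1 and 0.42 for number 2). The deviations of the 2 RA 72 h libraries mirror each other, so each correlation with one is the opposite of that with the other. With the replicate block 431 genes were called, 410 of them among the 467, and the block ended the calls of Bmp4, Notum, Pthlh, Rps4x and Tm7sf2 and added Rspo2. Untreated replicate 3 had a correlation of 0.509 with RA 72 h replicate 1 and, by the same mirroring, -0.509 with RA 72 h replicate 2.

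The mitosis and G2/M list had 17 to 27 members called higher over these settings. Its median log2 change was 0.83 with a pseudocount of 10, 0.91 with the span trend removed and 0.82 to 0.89 with a library left out. Among the 138 named genes tested, none called in the report changed direction. The sign turned for 4 that were not called: Col1a1, at 0.081 with the replicate block, 0.028 with the span trend removed and -0.20 to 0.18 with a library left out, Lgr5 (-0.43 to 0.057 with a library left out), Rarg (-0.086 to 0.20) and Yap1 (-0.028 to 0.073). Calls of low-level genes were lost most: a pseudocount of 10 ended those of Col14a1, Gja4, Irf7, Itga2b, Itgb2, Notum, Pthlh, Rps4x and Tm7sf2. No filter ended those of Col14a1, Fgf18, Itga2b, Pthlh, Rps4x and Sema6a, and the 5 libraries alone those of the same genes but for Itgb2 in place of Sema6a. Without the variance trend Col14a1, Fgf18 and Nrg3 were lost, with the side as a term Bmp4, Rps4x and Tm7sf2, and with the span trend removed these and Irf7 and Notum, while Dusp1 and Rspo2 were gained. In each case the cause was not tested.

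With 2 libraries at RA 72 h, leaving one out assumes that the other varies like the remaining groups. Depth is unknown, 2883 genes per library sit at the lowest value, and ranks tie across libraries, so small changes of low genes cannot be resolved.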

Other observations

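Levels of markers of other cell types are given here as values. Neural markers, 5 of 14 tested, summed to 1975 to 2254 untreated and 1912 to 1941 at RA 72 h. Syt1 was the highest of them, and Sox10, Olig2, Gfap and S100b were among those below 10 in all 5 libraries. Endothelial markers, 5 of 10 tested, summed to 91.6 to 166 untreated and 127 to 158 at RA 72 h. Erg was the highest, and Kdr, Tie1, Esam and Cldn5 were below 10. Haematopoietic markers, 3 of 11 tested with Cd14 the highest, summed to 86.5 to 129 and 81.6 to 95.8. Lyz2, Cd3e and Laptm5 were among those below 10. Skeletal muscle markers, 1 of 11 tested (Des), summed to 41.9 to 56.1 and 41.5 to 66.0, with Myod1 and Myog among those below 10. Pluripotency markers, 2 of 11 tested (Sox2 and Nanog), summed to 108 to 142 and 176 to 193, with Pou5f1 among those below 10. Of these lists, 1 neural gene (Stmn2) was called in limma, and Tek of the endothelial list and Sox2 of the pluripotency list had an unadjusted p below 0.05 without being called.

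Genes called lower had a shorter genomic span than others, with a median of 17.8 kb against 29.5 kb for genes called higher and 28.0 kb for all genes tested. Over 12519 genes, which are not replicates, the rank correlation of log2 change with span was 0.177.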
